A study of Homo sapiens with 8 samples.

Results

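A set of 10 tubulin genes was followed in 8 RNA libraries of MDA-MB-231 cells, a human triple-negative breast cancer line. They encode alpha-tubulins (TUBA1A, TUBA1B, TUBA1C and TUBA4A), beta-tubulins (TUBB, TUBB2A, TUBB3, TUBB4B and TUBB6) and gamma-tubulin (TUBG1). The 10 genes were listed by symbol and matched to the Ensembl identifiers of the count tables, which hold 58051 genes. Of these, 7550 genes reached the level needed for a test, and 9 of the 10 tubulin genes were among them. The family was chosen by the fold change of TUBA4A from SDHB KO libraries to SDHB KO SDHA low libraries, which was strongly negative. That contrast is given below as a description without a test.

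Parental cells (2 samples) were compared with SDHB KO cells (3 samples) and SDHB KO SDHA low cells (3 samples). SDHA and SDHB are subunits of mitochondrial complex II, the succinate dehydrogenase of the citric acid cycle and respiratory chain. SDHB KO cells had been cut with TALEN nucleases in SDHB and selected with hygromycin. The SDHB KO SDHA low cells carried that knockout, plus an shRNA plasmid against SDHA selected with puromycin. They are called knockout and knockdown cells from here on. No cells were treated, and all were collected before confluence in full medium. The labels of the sequenced samples name no empty-vector control and do not say which SDHA shRNA was used. Effects of the vector, of selection and of the shRNA on other genes cannot be told apart from those of low SDHA. Between knockout and parental cells, effects of transfection, selection and derivation of the line likewise cannot be told apart from those of SDHB loss. The labels call the replicates biological but do not say whether they are separate clones or cultures, so the tests cover the spread between these samples only.

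The libraries read the 3' ends of polyadenylated transcripts and held 773042 to 1427141 gene-assigned reads each. Knockdown replicate 2 was the deepest, and stood apart from its group, with a chi-square of its counts over genes of 10.6 and 11.3 per degree of freedom against the other samples of its group and 2.19 to 5.82 for every other replicate pair. Tubulin fold changes that involve knockdown cells, and the shares of the main isotypes, are given with and without it. SDHA had 64 and 69 reads in parental cells, 108, 121 and 140 in knockout cells, and 7, 17 and 16 in knockdown cells, while SDHB had 0 to 4 reads in every library, parental cells included, and so could not check the knockout. The mesenchymal markers VIM, CD44, AXL and SPARC were read in all 8 libraries, the luminal markers ESR1 and PGR and the blood and liver markers PTPRC, CD3E and ALB had no read in any, and CDH1, ERBB3 and PECAM1 had at most 3. GATA3, another luminal gene, had 8 to 20 reads.

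Microtubules are hollow polymers of alpha- and beta-tubulin heterodimers, and gamma-tubulin sits in ring complexes from which they grow. Vertebrates encode several alpha and beta isotypes that differ most at their acidic carboxyl-terminal tails, where many tubulin modifications are placed. New tubulin chains need the prefoldin and CCT chaperones and the tubulin cofactors TBCA to TBCE, and cells lower their tubulin mRNAs when free dimers accumulate, through recognition of the start of the growing chain by TTC5. Tubulin is of interest in breast cancer because taxanes and vinca alkaloids, used as drugs, bind tubulin.

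The end of the TUBA4A coding sequence is shown because it sets this isotype apart among alpha-tubulins. The line gives its last 60 bases, stop codon included, with the last sense codon in capitals (GENCODE transcripts, GRCh38, 5' to 3' on the coding strand).
TUBA4A: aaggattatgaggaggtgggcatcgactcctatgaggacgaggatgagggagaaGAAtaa

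TUBA4A (chr2:219250352-219250411, minus strand) ended on GAA, a glutamate codon, so its product lacks the terminal tyrosine that is removed and put back on other alpha-tubulins. The stretch lies in 1 exon, within the coding part of the gene. Over the whole coding sequence, TUBA1A, TUBA1B and TUBA1C were 95.9% to 97.2% identical to one another, and TUBA4A was 84.4% to 85.7% identical to each of them.

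The first 12 coding bases are shown because TTC5 reads alpha- and beta-tubulin chains at their start, with the codons after the start codon in capitals. TUBG1 is shown for contrast, because its first codons encode a different start.
TUBA1B: atgCGTGAGTGC
TUBA4A: atgCGTGAATGC
TUBB: atgAGGGAAATC
TUBG1: atgCCGAGGGAA

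The first 12 bases of TUBA1A and TUBA1C were those of TUBA1B, and those of TUBB4B were the same as in TUBB. In TUBB (chr6:30720507-30720518, plus strand) and TUBG1 (chr17:42609738-42609749, plus strand) they lie in 1 exon, whereas in the alpha genes an intron splits them. The beta genes were 81.0% to 87.7% identical to one another over the coding sequence, and each alpha and beta pair was 54.9% to 57.6% identical.

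TUBA4A lies at chr2:219249710-219277902 on the minus strand. It was read 77 and 41 times in parental cells, 91, 102 and 100 times in knockout cells, and 4, 6 and 7 times in knockdown cells. As CPM (counts scaled by the TMM method to library size and composition), these were 88 and 53.8 in parental cells, 123, 112 and 107 in knockout cells, and 4.77, 4.42 and 7.72 in knockdown cells. Knockout cells were highest, parental cells lay between, and knockdown cells were lowest, with no overlap between any 2 groups. The group means were 70.9 ± 24.2 CPM (SD, n = 2), 114 ± 8.36 (n = 3) and 5.64 ± 1.81 (n = 3).

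In knockdown cells TUBA4A was 20.2-fold lower than in knockout cells, a log2 fold change of -4.33 (SE 0.34) in a fit of all 7550 genes with edgeR. This difference chose the gene, and it had rank 3 from the lowest of the 7550 fold changes, after SIRPA and TRBC2, while SDHA, the knockdown target, had rank 5. Leaving out each library in turn gave log2 fold changes between -4.6 and -4.16, and -4.16 without knockdown replicate 2. In these 3 libraries 3 reads corresponded to 2.21 to 3.58 CPM, so TUBA4A was close to the smallest level that could be read and the fold rests on few reads. Against parental cells TUBA4A was 12.6-fold lower in knockdown cells, a log2 fold change of -3.66 (SE 0.37), or -3.48 without knockdown replicate 2. That comparison uses the same knockdown samples and is likewise a description.

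Between knockout and parental cells, a comparison that shares the knockout samples with the one used for the choice, TUBA4A had a log2 fold change of 0.67 (SE 0.28). Every knockout sample was above both parental samples. The difference did not pass the threshold of an adjusted p of 0.1 (edgeR quasi-likelihood test with Benjamini-Hochberg adjustment over 7550 genes, adjusted p = 0.21). Leaving out parental replicate 1 gave 1.08, and leaving out parental replicate 2 gave 0.37.

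**Figure D1:**
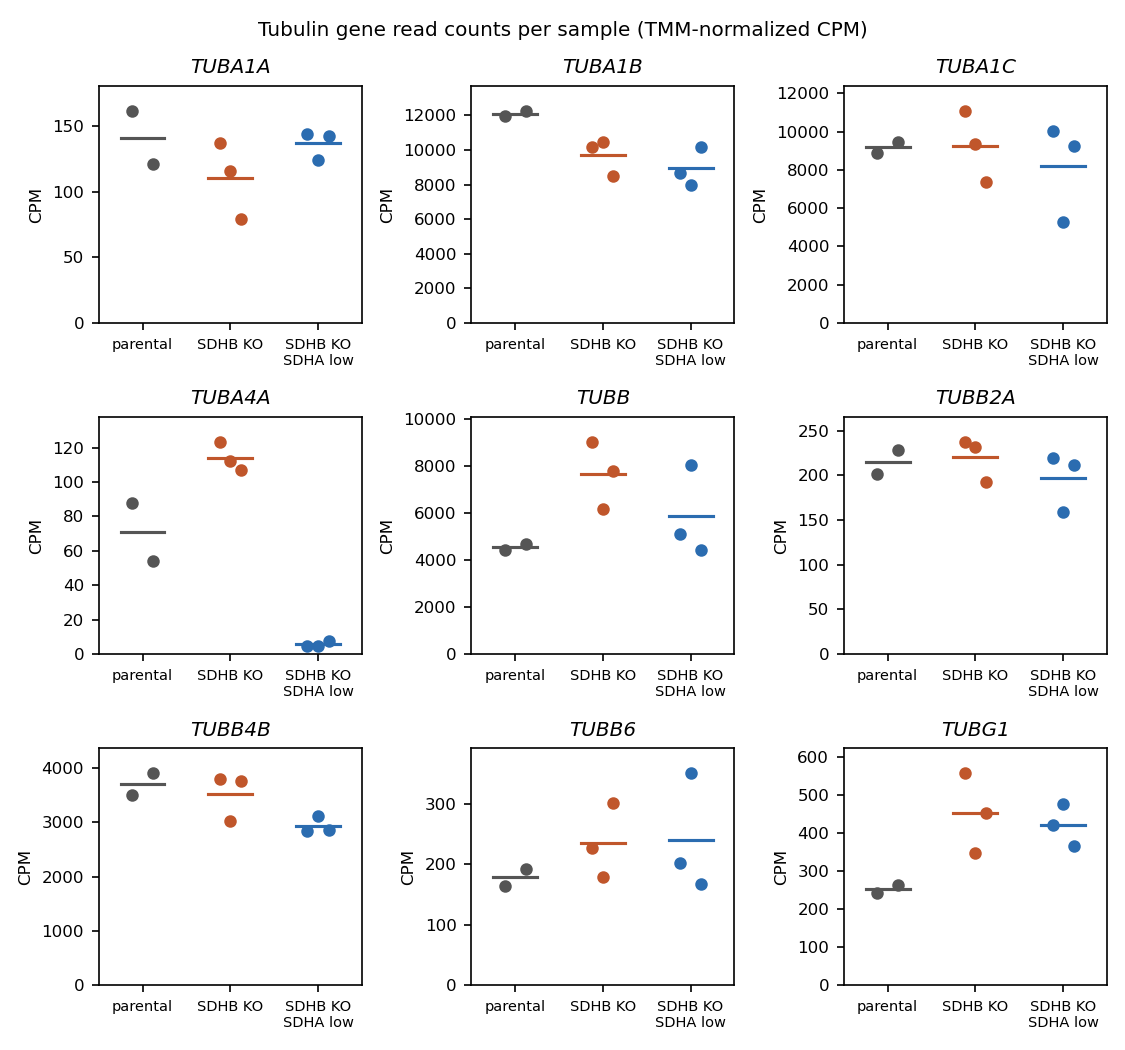
CPM (vertical axis, linear, from 0) of the 9 tubulin genes that were tested, with 1 point per library in each of the 3 groups and a bar at the group mean. TUBA4A lay at 4.42 to 7.72 CPM in knockdown cells against 107 to 123 in knockout cells, while the groups overlapped between these cells for the other 8 genes.

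TUBA1B and TUBA1C supplied nearly all alpha-tubulin reads. TUBA1B (chr12:49127782-49131397, minus strand), a ubiquitous isotype, had 11961 and 12225 CPM in parental cells, 10145, 10467 and 8520 in knockout cells, and 8683, 7969 and 10188 in knockdown cells. Both parental samples were above all 6 others, but the log2 fold changes of -0.32 (SE 0.19, adjusted p = 0.41, edgeR) for knockout and -0.43 (SE 0.19, adjusted p = 0.35, edgeR) for knockdown against parental cells did not pass the test. Between knockdown and knockout cells the log2 fold change was -0.12 (SE 0.17), and the samples overlapped. Without knockdown replicate 2 the log2 fold changes of knockdown cells were -0.36 against parental and -0.06 against knockout cells.

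TUBA1C (chr12:49188736-49274600, plus strand), its close relative, had 8868 and 9484 CPM in parental cells, 11057, 9339 and 7388 in knockout cells, and 10055, 5277 and 9255 in knockdown cells. The lowest value of all 8 was in knockdown replicate 2, and the 3 groups overlapped. The log2 fold changes of TUBA1C were 0.01 (SE 0.24) for knockout against parental cells, -0.18 (SE 0.22) for knockdown against knockout cells, and -0.16 (SE 0.24) for knockdown against parental cells. The comparisons with parental cells did not pass the test (adjusted p = 0.98 and 0.83, edgeR). Without knockdown replicate 2 the last 2 were 0.04 and 0.07.

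TUBA1A (chr12:49184686-49189080, minus strand), the isotype prominent in developing neurons, was read far less, with 161 and 121 CPM in parental cells, 137, 116 and 78.9 in knockout cells, and 144, 124 and 142 in knockdown cells. All groups overlapped. Its log2 fold changes of -0.36 (SE 0.26, adjusted p = 0.5, edgeR) in knockout and -0.05 (SE 0.25, adjusted p = 0.96, edgeR) in knockdown cells against parental cells did not pass the test. It was 0.31 (SE 0.23) between knockdown and knockout cells. Omitting knockdown replicate 2 gave 0.01 against parental and 0.36 against knockout cells.

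TUBB (chr6:30717435-30725538, plus strand), the main beta-tubulin gene of dividing cells, had 4441 and 4674 CPM in parental cells, 9013, 6165 and 7810 in knockout cells, and 5126, 8039 and 4412 in knockdown cells. It rose 1.68-fold in knockout over parental cells, a log2 fold change of 0.75 (SE 0.24, adjusted p = 0.096, edgeR), and every knockout sample was above both parental samples. The call sat at the edge of the threshold and was lost under 8 of 17 alternative settings, with adjusted p between 0.0068 and 0.56 over all 17. It was lost without parental replicate 1, parental replicate 2, knockout replicate 1, knockout replicate 3 or knockdown replicate 1, where the log2 fold change was 0.71, 0.79, 0.62, 0.75 and 0.75.

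In knockdown cells TUBB overlapped both other groups. The log2 fold change was -0.39 (SE 0.21) against knockout cells and 0.36 (SE 0.24, adjusted p = 0.57, edgeR) against parental cells. Its highest value was in replicate 2 of that group, and without that library the log2 fold changes were -0.71 and 0.06.

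TUBB4B (chr9:137241287-137243707, plus strand), a broadly expressed beta isotype, had 3495 and 3902 CPM in parental cells, 3796, 3016 and 3759 in knockout cells, and 2835, 3108 and 2857 in knockdown cells. The knockdown samples were below both parental samples, with a log2 fold change of -0.33 (SE 0.19, adjusted p = 0.5, edgeR), and overlapped the knockout samples, with -0.26 (SE 0.17). For knockout against parental cells it was -0.07 (SE 0.19, adjusted p = 0.9, edgeR). No comparison tested passed the threshold for TUBB4B. With knockdown replicate 2 left out the knockdown values were -0.38 against parental and -0.33 against knockout cells.

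TUBB6 (chr18:12307669-12344320, plus strand), a minor beta isotype, had 165 and 193 CPM in parental cells, 227, 179 and 302 in knockout cells, and 202, 351 and 168 in knockdown cells, with all groups overlapping. Its log2 fold changes against parental cells were 0.40 (SE 0.29, adjusted p = 0.5, edgeR) in knockout and 0.44 (SE 0.29, adjusted p = 0.57, edgeR) in knockdown cells, the latter 0.04 without knockdown replicate 2, which was again the highest sample. Between knockdown and knockout cells it was 0.03 (SE 0.25) with that library and -0.38 without it.

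TUBB2A (chr6:3153497-3157544, minus strand), a beta isotype typical of neurons, had 202 and 228 CPM in parental cells, 237, 232 and 193 in knockout cells, and 219, 159 and 212 in knockdown cells. The groups overlapped, and its 3 log2 fold changes lay between -0.17 and 0.03, or between -0.05 and 0.05 without knockdown replicate 2. Its comparisons with parental cells did not pass the test (adjusted p = 0.96 for knockout and 0.85 for knockdown cells, edgeR). TUBB3 (chr16:89921392-89938761, plus strand), the neuronal class III beta-tubulin that has been linked to taxane resistance, had 0 reads in all 8 libraries. A count of 0 allows up to 2.21 to 4.06 CPM at these depths, as counting error only. A second annotated gene covers 14701 bases of TUBB3 on the same strand and was also at 0, and reads falling in both could not have been assigned to either, so 0 is not shown to mean absence.

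TUBG1 (chr17:42609641-42615238, plus strand), the gamma-tubulin of centrosomal ring complexes, had 242 and 265 CPM in parental cells, 558, 347 and 453 in knockout cells, and 423, 476 and 366 in knockdown cells. All 6 knockout and knockdown samples were above both parental samples. It rose 1.78-fold in knockout over parental cells, a log2 fold change of 0.83 (SE 0.23, adjusted p = 0.059, edgeR). This call was lost under 6 of 17 alternatives, with adjusted p from 0.0079 to 0.5. It was lost without parental replicate 1, parental replicate 2, knockout replicate 1 or knockout replicate 3, where the log2 fold change was 0.77, 0.90, 0.66 and 0.85. In knockdown against parental cells it was 0.74 (SE 0.23), which did not pass the test (adjusted p = 0.17, edgeR), and in knockdown against knockout cells it was -0.10 (SE 0.20). These were 0.63 and -0.22 without knockdown replicate 2.

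**Figure D2:**
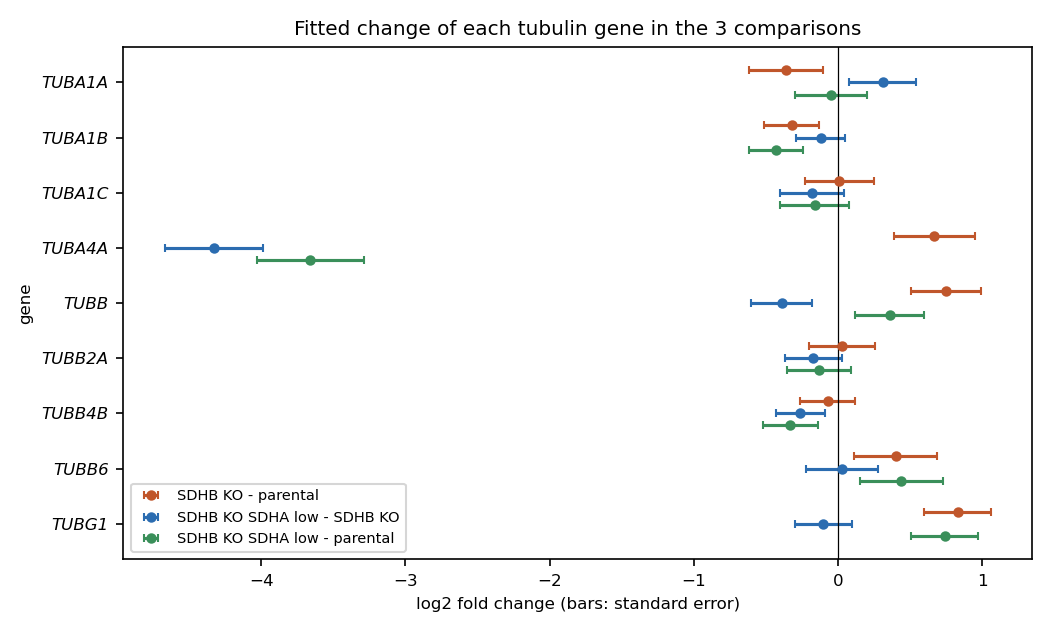
Fitted log2 fold changes (horizontal axis, points) with their standard errors (bars) for the 9 tested tubulin genes (vertical axis) in the 3 comparisons. TUBA4A stands at -4.33 and -3.66 in the comparisons with knockdown cells, and the other 8 genes lie between -0.43 and 0.83 in all 3.

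Counted over the family, 2 of the 9 tested genes, TUBB and TUBG1, were called in knockout over parental cells, both higher, beside 5.54% of all tested genes called in either direction, 3.14% called higher and 2.4% called lower. The median log2 fold change of the 9 genes was 0.03, that of all tested genes -0.001. Between knockdown and knockout cells 1 of 9 was called, TUBA4A, which was lower, beside 1.51% of all genes called and 1.19% called lower, and since that contrast chose the gene nothing is read from the count. Between knockdown and parental cells 1 of 9 was called, again TUBA4A and lower, beside 0.954% called and 0.689% called lower, and since it shares the knockdown samples that chose the gene nothing is read from this count either. The medians of the 9 genes in these comparisons were -0.17 and -0.13, or -0.14 and -0.09 without TUBA4A, and those of all tested genes were 0.013 and 0.018.

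Groups that do not overlap were common in these data. For knockout against parental cells 4 of the 9 tubulin genes did not overlap (TUBA4A, TUBB and TUBG1 higher, TUBA1B lower), beside 37.9% of all tested genes. For knockdown against parental cells it was also 4 (TUBG1 higher, TUBA1B, TUBA4A and TUBB4B lower), beside 30.8%. For knockdown against knockout cells it was 1, TUBA4A, beside 17.4%.

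Because each read of a 3' end library stands for 1 transcript end whatever the length of the transcript, reads of different tubulin genes can be set beside each other as shares. Alpha- and beta-tubulin genes together took 2.38% to 3.25% of gene-assigned reads. Of the alpha reads, TUBA1B took 56.3 ± 0.623% (SD, n = 2) in parental cells, 50.8 ± 3.09% (n = 3) in knockout cells and 52.5 ± 6.82% (n = 3) in knockdown cells, and TUBA1C took 42.7 ± 0.896%, 48 ± 3.06% and 46.6 ± 6.91%. Without knockdown replicate 2 the knockdown shares were 49 ± 4.26% (n = 2) for TUBA1B and 50.2 ± 4.24% for TUBA1C. TUBA1A took at most 0.926% in any sample. TUBA4A took 0.332 ± 0.122%, 0.598 ± 0.056% and 0.0326 ± 0.00708% of alpha reads, so even at its highest it was a small part of the alpha-tubulin message.

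Among beta reads TUBB took 52.7 ± 1.08% in parental cells, 65.6 ± 1.98% in knockout cells and 62.6 ± 5.78% in knockdown cells. TUBB4B took 42.7 ± 0.898%, 30.4 ± 1.57% and 32.6 ± 5.45%. Without knockdown replicate 2 the knockdown shares were 59.4 ± 2.45% (n = 2) for TUBB and 35.6 ± 2.5% for TUBB4B. TUBB2A and TUBB6 stayed at or under 2.53% on average in each group. The ratio of alpha to beta reads was 2.54 and 2.43 in parental cells, 1.62, 2.09 and 1.33 in knockout cells, and 2.25, 1.15 and 2.56 in knockdown cells. All 3 knockout samples were under the parental ones, and knockdown replicate 2 was far below the other samples of its group.

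**Figure D3:**
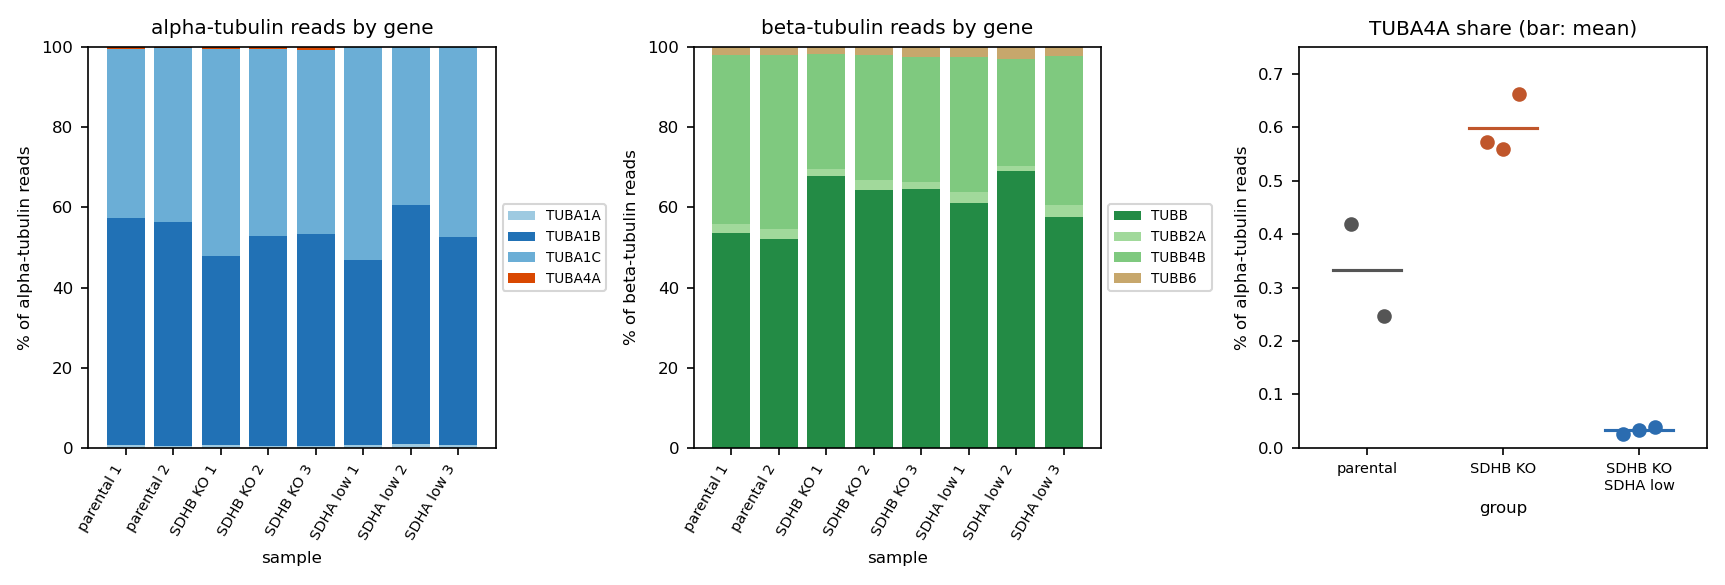
Percent of alpha-tubulin reads (left) and of beta-tubulin reads (middle) from each gene, as stacked bars from 0 to 100% for each library, and the TUBA4A percent of alpha reads (right, points for libraries and bars for group means). TUBB made up 52.7% of beta reads on average in parental cells and 65.6% in knockout cells, and TUBA4A ranged from 0.0326% to 0.598% of alpha reads as a group mean.

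Sequence shared between tubulin genes limits some of these counts. Of all stretches of 100 bases in the last 500 bases of each transcript, 50.4% of those of TUBB2A, 30% of TUBA1B, 11.7% of TUBB3, 11% of TUBB4B, 8.02% of TUBA1A and 1.5% of TUBG1 also occurred elsewhere in the genome, whereas none of TUBA1C, TUBA4A, TUBB or TUBB6 did. Reads mapping to several places were kept in a separate total in the count tables and assigned to no gene. The levels of TUBB2A, TUBA1B, TUBB3, TUBB4B and TUBA1A can therefore be understated. The order of levels between genes is uncertain to that degree. These unassigned reads numbered 109766 and 108929 in parental cells, 178030, 176406 and 187572 in knockout cells, and 132545, 170848 and 127957 in knockdown cells. Comparisons of groups, and shares and ratios that include these genes, carry the same limit. Its size was not tested. At 32 bases TUBA4A and TUBB6 had no repeated stretch, while the share was 12.3% for TUBB, 23.3% for TUBA1C, 24.8% for TUBG1, 27.5% for TUBB3 and 39.9% to 57.6% for TUBB4B, TUBA1A, TUBA1B and TUBB2A.

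The TUBA4A 3' end meets that of STK16, a kinase gene on the opposite strand, over 628 bases (chr2:219249710-219250337), nearly all of its 3' untranslated region of 642 bases. Whether reads were counted by strand is not given in the sources used here. Counted without strand, reads falling in exons of both genes there could not have been assigned to either. STK16 had 48 and 28 reads in parental cells, 70, 39 and 108 in knockout cells, and 42, 89 and 39 in knockdown cells, and the groups overlapped. Its log2 fold change was -0.65 (SE 0.31, adjusted p = 0.4, edgeR) between knockdown and knockout cells. The same limit could hold for TUBB4B, which FAM166A overlaps on the opposite strand over 124 bases at its 3' end. It could also hold for TUBA1B, which lies whole within TUBA1B-AS1 and had 7282 to 10815 reads per library. For TUBA1A it could hold too, since TUBA1B-AS1 covers 3799 bases of that gene, its 3' end included. These overlaps are of whole gene spans, and whether exons are shared was not tested. Other overlaps lay away from the 3' end of the GENCODE transcript used here, although transcripts that end further on could meet them. AFG3L2 overlaps the TUBB6 gene over 15377 bases and BPHL overlaps TUBB2A over 82 bases, both past the end of that transcript. RETREG3 overlaps TUBG1 over 983 bases at its start, and TUBA1A and TUBA1C overlap each other over 345 bases at their starts. TUBB holds an opposite-strand noncoding gene of 773 bases that had no read.

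Other genes around TUBA4A were compared with it. Within 100 kb of its annotated start 16 genes are annotated, 14 are in the tables, 8 had a read and 6 could be tested. None of the 6 (CNPPD1, ZFAND2B, ATG9A, ANKZF1, STK16 and DNAJB2) was called in any comparison by edgeR or DESeq2. Of all tested genes, edgeR called 5.54% in knockout against parental, 1.51% in knockdown against knockout and 0.954% in knockdown against parental cells. Of the 6, those at an unadjusted p under 0.05 numbered 1, 2 and 0 in the same order of comparisons. Beside them stood 17.5%, 12.1% and 12.3% of all tested genes at that level. The 1 was STK16, higher in knockout cells. The 2 were ANKZF1 and STK16, both lower in knockdown than in knockout cells, the direction of TUBA4A. In that comparison CNPPD1, ZFAND2B, ATG9A and DNAJB2 had log2 fold changes between -0.15 and 0.07. Distances were taken from the annotated start of the whole TUBA4A gene. The transcript shown above begins its coding sequence at chr2:219253858, well inside the gene, so distances from that transcript differ. DNAJB2, a co-chaperone gene whose start lies nearest to the annotated gene start, had 35.1 ± 6 CPM (SD, n = 2) in parental cells. It had 25 ± 8.85 (n = 3) in knockout cells and 26 ± 1.92 (n = 3) in knockdown cells. The furthest from 0 in knockdown against knockout cells was ANKZF1, with a log2 fold change of -1.12 (SE 0.36, adjusted p = 0.19, edgeR).

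**Figure D4:**
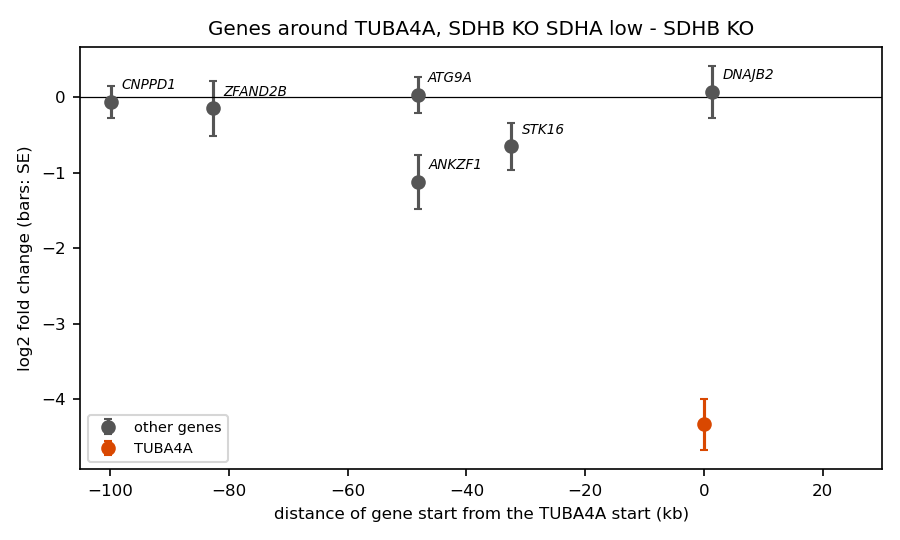
Log2 fold change between knockdown and knockout cells (vertical axis, points, with standard errors as bars) for TUBA4A and the 6 tested genes with a start within 100 kb. The horizontal axis is the distance of each gene start from the annotated start of the whole TUBA4A gene, in kb. TUBA4A is at -4.33 and the other genes lie between -1.12 and 0.07.

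The genes whose pattern over the 8 libraries was most like that of TUBA4A were found by Pearson's r of log2 CPM over 7541 tested genes outside the family. They were SIRPA (r = 0.986), which encodes a receptor for CD47, SDHA (r = 0.982), CDC25B (r = 0.975), a mitotic phosphatase gene, TPI1 (r = 0.961), a glycolytic enzyme gene, and INHBB (r = 0.947), an activin subunit gene. These values are a description over libraries that fall into 3 groups, with both genes of a pair read from the same libraries, and all 5 genes were lower in knockdown than in knockout cells. SIRPA had 14 and 4 reads in parental cells, 14, 16 and 18 in knockout cells and 0, 0 and 1 in knockdown cells, and INHBB had at most 11 in any library. Between knockdown and knockout cells the log2 fold change was -1.15 (SE 0.19) for CDC25B and -0.78 (SE 0.18) for TPI1, and both are descriptions, since the likeness to TUBA4A chose the genes. The log2 fold change of SDHA was -3.46 (SE 0.28), and in SDHA CPM the order of the groups was that of TUBA4A.

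**Figure D5:**
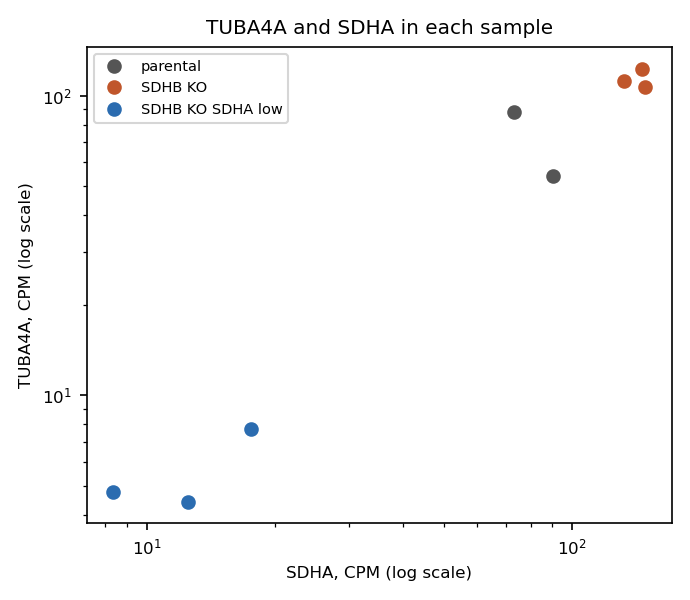
TUBA4A CPM (vertical axis) against SDHA CPM (horizontal axis), both on log scales, with 1 point per library coloured by group. The 3 knockdown libraries lie at 8.35 to 17.6 SDHA CPM and 4.42 to 7.72 TUBA4A CPM, apart from the other 5.

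Lists of 92 genes were examined, of which 91 had an identifier in the tables and 59 were tested. They hold genes for proteins that fold, anchor, modify and bind tubulin, 12 other tubulin genes and 3 genes of tubulin mRNA autoregulation. In knockout over parental cells 3 rose and 2 fell, beside 5.54% of all tested genes called, and the median log2 fold change of the 59 was 0.04. At an unadjusted p under 0.05 there were 11 of the 59, beside 17.5% of all tested genes. In knockdown against knockout cells 1 fell and none rose, beside 1.51% of all tested genes called, with a median of -0.06. Here 6 of the 59 had an unadjusted p under 0.05, beside 12.1% of all tested genes. In knockdown against parental cells 0 were called by edgeR and 0 by DESeq2, beside 0.954% of all tested genes, and 8 of the 59 had an unadjusted p under 0.05, beside 12.3% of all tested genes.

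Of the folding machinery, 18 of 21 listed genes were tested. PFDN5 and TBCC rose in knockout over parental cells, beside 3.14% of all tested genes called higher. PFDN5, a prefoldin subunit that hands unfolded tubulin to CCT, had 147 and 132 reads in parental cells, 372, 287 and 380 in knockout cells and 174, 254 and 141 in knockdown cells. Knockout cells were above both other groups without overlap. PFDN5 rose 2.39-fold over parental cells, a log2 fold change of 1.26 (SE 0.24, adjusted p = 0.0088, edgeR), a call lost without parental replicate 1 or parental replicate 2. Over all 17 alternatives this value lay between 1.08 and 1.41. It fell by 1.15 (SE 0.21, adjusted p = 0.0076, edgeR) on the log2 scale from knockout to knockdown cells, a call that held under all 17 alternatives. The rise and the fall share the knockout samples, so they are not independent results. Between knockdown and parental cells the PFDN5 log2 fold change was 0.10 (SE 0.24, adjusted p = 0.9, edgeR). TBCC, the cofactor that completes the dimer, had 37 and 36 reads in parental cells, 78, 60 and 83 in knockout cells and 79, 99 and 63 in knockdown cells, and rose by 0.95 (SE 0.29, adjusted p = 0.087, edgeR) in knockout over parental cells, a call lost under 6 of 17 alternatives, among them leaving out either parental replicate or knockout replicate 1 or 3. The TBCC value lay between 0.79 and 1.11 over all alternatives.

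Of the gamma-tubulin ring complex and its anchors, 10 of 12 genes were tested. In knockout over parental cells 1 was called, beside 5.54% of all tested genes. TUBGCP2, a subunit that holds gamma-tubulin in the ring, had 66 and 71 reads in parental cells, 123, 123 and 191 in knockout cells and 124, 211 and 99 in knockdown cells. Like TUBG1, it was above the parental samples in all 6 others. It rose 2-fold in knockout over parental cells (log2 fold change 1.00, SE 0.26, adjusted p = 0.046, edgeR), a call lost under 5 of 17 alternatives, among them leaving out either parental replicate or knockout replicate 1 or 3, with values from 0.85 to 1.16 over all alternatives. TUBG2, the second gamma-tubulin gene, had 9 to 28 reads and was not called in any comparison.

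The 2 list genes that fell in knockout cells were TTLL12 and MAPRE1, beside 2.4% of all tested genes called lower. TTLL12, a member of the tubulin tyrosine ligase-like family, had 503 and 466 reads in parental cells, 209, 271 and 406 in knockout cells and 374, 631 and 504 in knockdown cells, and fell by 0.81 (SE 0.22, adjusted p = 0.053, edgeR) on the log2 scale in knockout against parental cells. MAPRE1, the end-binding protein EB1 that tracks growing microtubule tips, had 79 and 44 reads in parental cells, 23, 47 and 28 in knockout cells and 55, 82 and 51 in knockdown cells, and fell by 0.98 (SE 0.31, adjusted p = 0.096, edgeR) in the same comparison. The TTLL12 call was lost under 5 of 17 alternatives, among them leaving out either parental replicate or knockout replicate 1 or 2, with values from -1.02 to -0.70 over all alternatives. The MAPRE1 call was lost under 8, among them leaving out either parental replicate, knockout replicate 1 or 3 or knockdown replicate 1, with values from -1.28 to -0.61 over all alternatives. No other of the 8 tested genes of the modification list or the 20 of the dynamics list was called by edgeR in any of the 3 comparisons.

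TTC5, the sensor of the tubulin autoregulation pathway, had 14 and 17 reads in parental cells, 34, 29 and 28 in knockout cells and 30, 38 and 36 in knockdown cells. Both groups lay above the parental samples, but the log2 fold changes of 0.90 (SE 0.39, adjusted p = 0.22, edgeR) and 0.84 (SE 0.39, adjusted p = 0.37, edgeR) did not pass the test.

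Of 66 other tubulin-named loci in the tables, 9 had a read. Besides TUBG2 they were TUBBP1, a TUBB pseudogene with 17 to 40 reads per library, TUBB2B and TUBB4A with at most 6, TUBA1B-AS1 with at most 4, and TUBA5P, TUBAL3, TUBD1 and TUBE1 with at most 1. Reads at a pseudogene may come from its parent gene, and the 2 cannot be separated in these counts.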

How the data were processed

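RNA of the 8 MDA-MB-231 cell samples was made into 3' end libraries with the Lexogen QuantSeq forward kit. Per the study's methods the authors trimmed the reads with Trimmomatic, removed ribosomal and mitochondrial reads with Sortmerna, aligned to GRCh38 and produced raw gene counts with STAR 2.5.2b, which the submitters' processing notes also name. The strand column taken from STAR is not given in the sources used here. The deposited raw counts were used here. The deposited normalized counts, a signal the authors scaled by DESeq2 size factors, were only matched to the raw ones: those labelled SDHB KO replicates 1 and 3 hold raw replicates 3 and 1, and raw numbering is used throughout. Reads assigned to no gene, 18.8% to 28.6% of each library, were left out. They include reads ambiguous between genes, which were 3.4% to 3.8% of gene-assigned and ambiguous reads together. The unassigned share was 22.3% and 22.5% in parental libraries, 28.6%, 27.6% and 26% in knockout libraries, and 24.4%, 18.8% and 23.1% in knockdown libraries.

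Counts were fitted with edgeR 4.0.16 in R 4.3.3 by the quasi-likelihood test with TMM scaling, in 1 model of all 8 samples with 3 groups (biological coefficient of variation 21.5%, 5 residual degrees of freedom), for genes with a mean normalized count over 5, and called at a Benjamini-Hochberg adjusted p under 0.1, the threshold of the study's methods. SE is the log2 fold change divided by the root of the F statistic. DESeq2 1.42.0 was an alternative. The fit was also run on simulated counts with 200 changed genes and the same relative spread for all genes. These did not copy the distance of knockdown replicate 2 from its group, so nothing is read from them about these data. Identifiers were matched to symbols for 56948 of 58051 genes, and TBCE had no match. Sequences are from GENCODE transcripts on GRCh38. The members and lists were chosen with earlier results of these data known. Genes named were the 10 tubulin genes, other tubulin genes with reads, list genes called in any comparison, genes with a start within 100 kb of that of TUBA4A, the 5 genes most like TUBA4A, SDHA and SDHB. TTC5, TRBC2, STK16 as an overlapping gene and the cell markers fall outside or beside this rule and were named after their values were seen. Replicate numbers did not pair samples (mean r of same-number deviations -0.07, range -0.27 to 0.093 over 7 pairs). Precision is set by counting error and replicate spread. Floors of 3 counts, from 2.21 to 4.06 CPM, cover counting error only.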

Additional observations from a re-analysis of the deposited data

How the results depend on the processing

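There were 17 alternatives to the fit given in the report, namely other scalings, filters, samples, DESeq2, a stricter threshold, the replicate block and leaving out each library. The TUBA4A log2 fold change between knockdown and knockout cells stayed between -4.6 and -4.16 when any library was left out. All genes called numbered 418, 114 and 72 in knockout against parental, knockdown against knockout and knockdown against parental cells. At an adjusted p of 0.05 these were 171, 64 and 13, with only the 2 groups compared 773, 64 and 7, and without a count filter the last was 152. Under the replicate block they were 199, 59 and 12, and the tubulin genes called in knockout against parental cells were 0 and the list genes 2. With libraries left out in turn the 3 counts ranged from 0 to 833, 39 to 362 and 4 to 172, and the high ends of 833, 362 and 172 came without knockdown replicate 2. The 2 tubulin genes called in knockout against parental cells ranged from 0 to 2, were 0 at an adjusted p of 0.05 and 1 with DESeq2 size factors in edgeR. The 1 called in knockdown against knockout cells ranged from 1 to 2, TUBB being added at -0.71 without knockdown replicate 2. List genes called ranged from 0 to 7, 1 to 2 and 0 to 2, were 2 in knockout against parental cells at an adjusted p of 0.05, and 1 in knockdown against parental cells without a filter. The cause of these shifts was not tested.

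Signs turned for tubulin genes close to 0. With libraries left out in turn, log2 fold changes in knockout against parental cells ran from -0.13 to 0.17 for TUBA1C, -0.05 to 0.14 for TUBB2A and -0.15 to 0.03 for TUBB4B. In knockdown against knockout cells they ran from -0.35 to 0.04 for TUBA1C, -0.38 to 0.24 for TUBB6 and -0.26 to 0.08 for TUBG1, and in knockdown against parental cells from -0.24 to 0.18 for TUBA1A and -0.34 to 0.07 for TUBA1C. The extremes of 0.04 and 0.07 for TUBA1C and -0.38 for TUBB6 came without knockdown replicate 2. Library totals or upper-quartile scaling gave -0.03 for TUBA1C and -0.01 for TUBB2A in knockout against parental cells. The replicate block gave 0.06 for TUBA1A in knockdown against parental and -0.01 for TUBB6 in knockdown against knockout cells. Of the genes near TUBA4A, 1 was called in knockout against parental cells without knockout replicate 2, and 1 without knockdown replicate 2. Scaling by DESeq2 size factors, library totals or upper quartiles moved the median log2 fold change of all genes by -0.044 to 0.024.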
